A study of Mus musculus with 6 samples.

Results

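The 10 claudins Cldn1, Cldn2, Cldn3, Cldn4, Cldn5, Cldn7, Cldn8, Cldn10, Cldn15 and Cldn18 were taken by gene identifier from 6 tables of ribosome density, which together listed 18437 mRNAs and 21 claudins. Ribo-seq, which sequences the mRNA fragments held inside translating ribosomes, had been performed on whole tissue of untreated, wild-type C57BL/6J mice aged 4 weeks. There was 1 library for each of 6 tissue labels, namely brain, small intestine, colon, kidney, heart and lung, and neither the sex nor the number of animals behind a library was given in the labels. Values are RPKM, in which the reads that fall on a coding sequence (CDS) are divided by its length and by the total over every CDS of that library. Multiplying RPKM by CDS length returned whole reads, between 4504853 and 10635031 per library. Each value therefore has an exact Poisson interval (95%), and a value with no reads is given as the RPKM of 3 reads. These intervals cover counting error alone, since reads carried no molecular identifiers and no tissue had a replicate, so no test between tissues was made.

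Claudins are small membrane proteins that cross the membrane 4 times and assemble into the strands of tight junctions, the seals between neighbouring epithelial or endothelial cells. Sealing claudins close the path between cells, whereas pore-forming claudins line channels that let selected ions and water through. Cldn2, Cldn10 and Cldn15 were counted as pore-forming, and Cldn1, Cldn3, Cldn4, Cldn5, Cldn7, Cldn8 and Cldn18 as sealing. Claudin-4 and claudin-7 are known to act as barriers in some epithelia and as anion paths in others, so both were also left out as an alternative.

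The labels were checked against cell type markers before any claudin was compared, and 4 of the 6 went against them. The library labelled brain carried the small intestine list, with 3368 RPKM of Apoa4 and 779 of Sis, whereas Snap25 of neurons stood at 0.761. Neuron markers lay in the library labelled small intestine, with 683 RPKM of Snap25. Umod of the kidney's thick ascending limb reached 16438 RPKM in the library labelled colon against 10.9 in that labelled kidney. Muc2, the intestinal mucin, stood at 1.15 RPKM under the label colon and at 2486 under kidney. Markers of heart and lung went with their labels, with 6616 RPKM of Myh6 and 39332 of Sftpc. The mapping was kept as given, each library is called by its label, and the comparison of the libraries labelled lung and heart is given separately because it does not rest on the other four. Reads of Kri1, which is no claudin, were 22.1% of the total under the label kidney and 14.1% under small intestine, against 0.400% to 6.79% under the others, which lowers every RPKM there.

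The stretch of CDS around the claudin signature is shown because it sits in the first extracellular segment, whose charged residues are known to set which ions a pore lets through. Capitals mark the leucine and tryptophan codons and both cysteine codons of the signature, and 2 further codons follow the second cysteine. Each stretch has 54 nt, is written 5′ to 3′ on the coding strand, and comes from the GENCODE M39 transcripts of GRCm39, the build of the files. Among the pore-forming claudins the stretches read:
Cldn2, chrX:138709601-138709654, plus strand: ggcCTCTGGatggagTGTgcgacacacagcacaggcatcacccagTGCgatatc
Cldn15, chr5:136997099-136997152, plus strand: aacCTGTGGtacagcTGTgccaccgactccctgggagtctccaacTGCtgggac
Cldn10, transcript of the row, chr14:119092543-119092596, plus strand: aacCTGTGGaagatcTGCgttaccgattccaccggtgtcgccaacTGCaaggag
Cldn10, the other first exon, chr14:119025704-119025757, plus strand: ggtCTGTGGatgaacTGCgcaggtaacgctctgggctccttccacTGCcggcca
Codon 65 of Cldn2, directly after the second cysteine, was GAT for aspartate. The same place held TGG followed by the aspartate codon GAC in Cldn15, AAG followed by GAG in the Cldn10 transcript of the row, and CGG in the Cldn10 transcript with the other first exon. Of the sealing claudins, the neighbours Cldn3 and Cldn4 and the members with the largest sealing share in a library other than that labelled colon, namely Cldn7, Cldn5 and Cldn18 with both first exons, read:
Cldn3, chr5:135015440-135015493, plus strand: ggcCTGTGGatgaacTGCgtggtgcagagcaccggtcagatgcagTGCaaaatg
Cldn4, chr5:134975402-134975455, minus strand: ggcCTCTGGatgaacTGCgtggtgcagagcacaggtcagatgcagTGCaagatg
Cldn7, chr11:69856897-69856950, plus strand: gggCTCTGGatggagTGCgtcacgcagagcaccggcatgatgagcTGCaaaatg
Cldn5, chr16:18595890-18595943, plus strand: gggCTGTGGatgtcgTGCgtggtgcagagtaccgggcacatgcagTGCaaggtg
Cldn18, transcript of the row, chr9:99591807-99591860, minus strand: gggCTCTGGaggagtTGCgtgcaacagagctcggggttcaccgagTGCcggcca
Cldn18, the other first exon, chr9:99599074-99599127, minus strand: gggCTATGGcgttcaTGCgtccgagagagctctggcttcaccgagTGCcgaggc
A lysine codon, AAA or AAG, followed the second cysteine in Cldn3, Cldn4, Cldn5 and Cldn7, and an arginine codon, CGG or CGA, in both forms of Cldn18. Over whole CDSs the 45 pairs of members had a median identity of 53.8%, from 46.7% to 69.7%. The most alike were Cldn3 and Cldn4, neighbours on chromosome 5 (135015068 to 135016326 on the plus strand and 134973973 to 134975788 on the minus strand). They shared 8 windows of 28 nt, about the length of a ribosome footprint, of 630 in Cldn3 and 603 in Cldn4. None of the other 8 members shared such a window with another listed mRNA, 131 listed mRNAs having been absent from the transcript file. By exact matches of this length, the exclusion of multi-mapped reads thus touches Cldn3 and Cldn4, over 1.27% and 1.33% of their windows. Shorter or mismatched alignments were not searched, so it could reach further.

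All 10 claudins had at least 10 reads in their highest library, although 19 of their 60 values rested on fewer than 10 reads and 4 had none. Against a fold of 4, 3 members stood above the next library in a single one, Cldn1 in that labelled colon and Cldn5 and Cldn18 in that labelled lung. The background was 25.0% of the 15194 mRNAs with at least 10 reads in their highest library, so 3 of 10 is close to what mRNAs show in general. A rule added after the values had been seen asked for 2 libraries at least 4-fold above the third and less than 4-fold apart. It took in 4 members, Cldn3, Cldn4 and Cldn7 in the libraries labelled brain and kidney and Cldn10 in those labelled colon and small intestine, against a background of 7.71%. Cldn2, Cldn8 and Cldn15 met neither rule. The median fold of the highest library over the next was 1.67 for the members and 1.84 for all mRNAs tested.

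**Figure D1:**
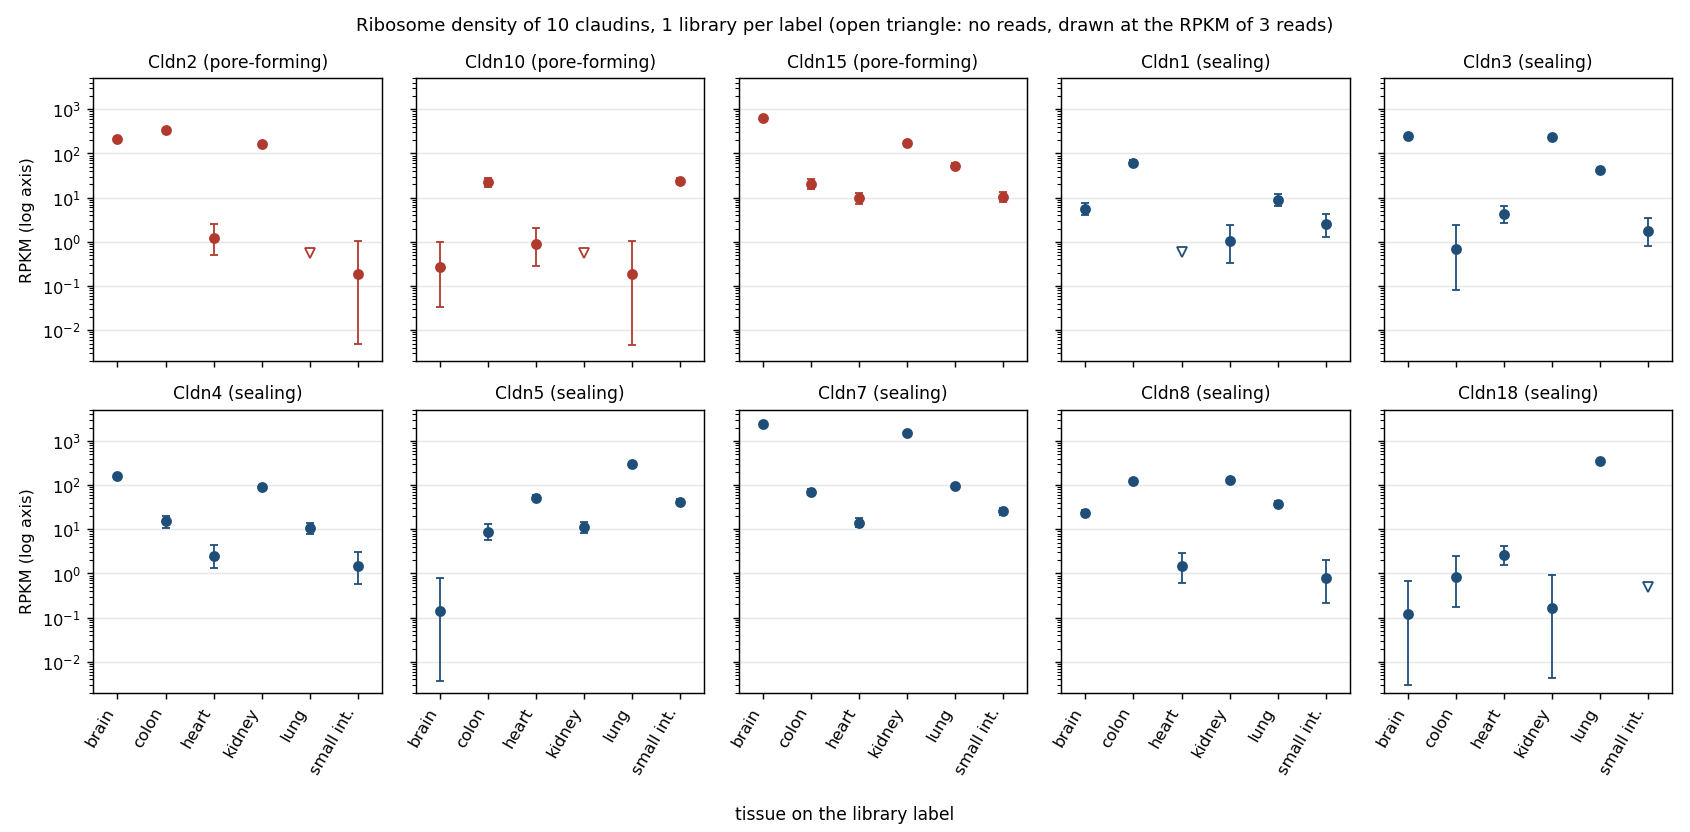
RPKM of each claudin (vertical log axis) in the 6 libraries, named by tissue label (horizontal axis), with exact Poisson 95% intervals; open triangles stand at the RPKM of 3 reads where no read was found. Cldn7 stands at 2370 and 1553 RPKM in the libraries labelled brain and kidney, and Cldn18 is high in a single library, at 359 RPKM in that labelled lung.

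Cldn7, a claudin of the lateral membrane of gut and other epithelia, had the highest density of the family. It reached 2370 RPKM (2334 to 2407) in the library labelled brain, rank 36 of 11520 mRNAs with reads, and 1553 (1518 to 1589) in that labelled kidney. Next came 94.8 RPKM labelled lung, 69.4 labelled colon, 25.4 labelled small intestine and 14.1 labelled heart. No neighbours in this order had overlapping intervals, and the second library stood 16.4-fold above the third. The fold of brain over kidney was 1.53 (1.48 to 1.57). It came to 1.21 with Kri1 left out of the totals and 1.20 with size factors in place of total reads, both below that interval. The gene, with 4 coding exons, lies at 69852648 to 69858711 of chromosome 11, plus strand.

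Cldn3 and Cldn4, the neighbouring genes on chromosome 5, are barrier claudins of many epithelia, and each has its whole CDS in 1 exon. Cldn3 had 243 RPKM (232 to 255) in the library labelled brain and 242 (228 to 256) in that labelled kidney, with overlapping intervals. The fold of brain over kidney was 1.007 (0.934 to 1.08), but 0.800 with Kri1 left out of the totals and 0.789 with size factors, so that the library labelled kidney was higher under both of these scalings. It then had 41.3 RPKM labelled lung, 4.28 labelled heart, 1.79 labelled small intestine and 0.676 labelled colon, the last from 2 reads. Cldn4 was ordered more clearly, with 159 RPKM (150 to 169) labelled brain and 91.9 (83.5 to 101) labelled kidney. Its fold of brain over kidney was 1.73 (1.55 to 1.94), but 1.37 with Kri1 left out of the totals and 1.36 with size factors. Its other values were 15.2 labelled colon, 10.5 labelled lung, 2.52 labelled heart and 1.45 labelled small intestine. The pair parted company in the library labelled colon, where 2 reads of Cldn3 stood beside 43 of Cldn4. The ratio of Cldn3 to Cldn4 was 0.0446 (0.00523 to 0.171) there, against 1.53 (1.42 to 1.66) labelled brain, 2.63 (2.36 to 2.94) labelled kidney and 3.95 (2.90 to 5.47) labelled lung. This ratio lies within a library and does not depend on how libraries were scaled.

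Cldn2, the cation and water pore of leaky epithelia such as the kidney's proximal tubule and crypts of the gut, was spread over 3 libraries. It had 339 RPKM (319 to 360) labelled colon, 211 (201 to 222) labelled brain and 166 (155 to 177) labelled kidney. The order of brain and kidney depended on scaling. With size factors both stood at 198 RPKM, and with Kri1 left out of the totals they stood at 216 and 213. The remaining values were near or at nothing, with 1.24 RPKM labelled heart from 7 reads, 0.190 labelled small intestine from 1 read, and no reads labelled lung, where 3 reads would be 0.562. The gene, which has its whole CDS in 1 exon, lies on chromosome X, from 138701480 to 138712135 on the plus strand.

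Cldn15, known as the sodium pore of the intestinal epithelium, was found in every library. It was highest at 652 RPKM (633 to 670) in the library labelled brain and 3.69-fold (3.44 to 3.97) lower, at 176 (165 to 188), in that labelled kidney. This fold came to 2.94 with Kri1 left out of the totals and 2.89 with size factors, both below that interval. Cldn15 had 53.2 RPKM labelled lung and 20.5 labelled colon. The lowest levels, 10.4 labelled small intestine and 9.69 labelled heart, had overlapping intervals. Gut markers were present in both, with 280 RPKM of Fabp2 and 57.5 of Apoa4 labelled small intestine and 53.7 of Zg16 and 38.3 of Muc2 labelled heart, and their part in the Cldn15 values was not tested. The balance of both cation pores differed between libraries, since Cldn2 was 16.5-fold (12.8 to 21.6) above Cldn15 in the library labelled colon and 0.324 of it (0.306 to 0.343) in that labelled brain. In that labelled kidney the ratio was 0.938 (0.854 to 1.03), so the levels of these pores could not be told apart by their counts.

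Cldn10 forms pores for ions of opposite charge depending on its first coding exon. Its row counts the transcript that starts in the downstream first exon, which makes up 31.7% of the CDS. Reads on the other first exon are not in the row, and those on the 4 shared coding exons are included. How much of the density belongs to either form was not tested. Cldn10 had 24.0 RPKM (20.0 to 28.5) labelled small intestine from 127 reads and 22.1 (17.2 to 27.97) labelled colon from 69 reads, with overlapping intervals. Elsewhere it had between 1 and 5 reads, at 0.882 RPKM or less, and no reads in the library labelled kidney, where 3 reads would be 0.571 RPKM. Both libraries with Cldn10 carried markers of other organs than their labels name, and the library labelled small intestine had the neuron markers beside 0.190 RPKM of Cldn2.

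Cldn1, the barrier claudin known from skin and many other epithelia, was highest in the library labelled colon at 61.0 RPKM (52.3 to 70.8). This was 6.94-fold (4.95 to 9.94) above the 8.79 RPKM labelled lung. The others had 5.64 RPKM labelled brain, 2.48 labelled small intestine and 1.04 labelled kidney, and no reads were found in that labelled heart, where 3 reads would be 0.579. Cldn8, a claudin of the distal nephron and colon, had overlapping intervals in the libraries labelled kidney, at 128 RPKM (119 to 138), and colon, at 123 (111 to 136). The fold of kidney over colon was 1.04 (0.919 to 1.19), and it came to 1.25 with Kri1 left out of the totals and 1.39 with size factors, both beyond that interval. It had 37.2 RPKM labelled lung, 23.1 labelled brain, 1.45 labelled heart and 0.775 labelled small intestine. The ratio of brain to kidney was 0.180 (0.151 to 0.214) for Cldn8, the lowest of the 6 members with at least 10 reads in both. Cldn5, with 1 and 55 reads, had a lower ratio of 0.0130 (0.000322 to 0.0753). The median ratio of those 6 was 1.40, and that over 8999 mRNAs was 1.30.

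Cldn5, the claudin of endothelium and the main seal of the blood-brain barrier, was highest in the library labelled lung at 299 RPKM (285 to 315). It was 5.72-fold (5.04 to 6.53) above the 52.3 RPKM (46.4 to 58.8) labelled heart, a fold that came to 3.68 with size factors in place of total reads and so fell under the rule of 4. The library labelled small intestine, with the neuron markers, had 42.4 RPKM (36.9 to 48.5), which overlapped heart. Lower came 11.1 labelled kidney and 8.83 labelled colon, and the library labelled brain had 1 read, at 0.144 RPKM.

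Endothelial markers differed widely between libraries, with 6 mRNAs summing to 2330 RPKM labelled lung and 501 labelled heart but 29.4 labelled small intestine. In ribosome density of whole tissue, fewer cells of a type, less RNA per cell and fewer ribosomes per mRNA cannot be told apart. Cldn5 was therefore set against the mean of Pecam1, the platelet endothelial adhesion molecule, and Cdh5, the endothelial cadherin, of the same library. The ratio was 4.37 (3.68 to 5.18) in the library labelled small intestine. It was 0.411 (0.313 to 0.539) labelled kidney, 0.352 (0.334 to 0.370) labelled lung, 0.290 (0.257 to 0.327) labelled heart and 0.130 (0.0885 to 0.192) labelled colon. At the bottom stood 0.00342 (0.000481 to 0.0243) in the library labelled brain, which rested on 1 read of Cldn5 beside 912 of Pecam1 and 1127 of Cdh5. Relative to these endothelial mRNAs, the library with the neuron markers thus had the highest Cldn5 density, and that with the small intestine markers the lowest. The ratio of the library labelled small intestine was 10.03 against Pecam1 alone and 2.79 against Cdh5 alone, above every other library in both cases.

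**Figure D2:**
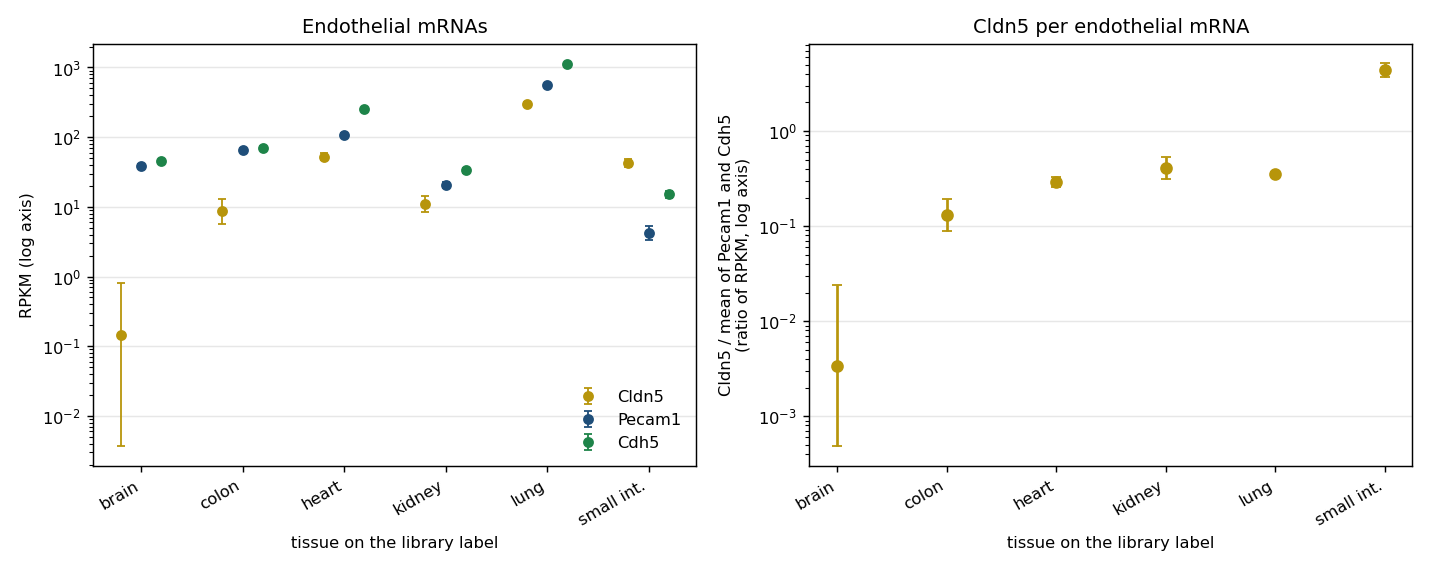
Left, RPKM (log axis) of Cldn5, Pecam1 and Cdh5 in the 6 libraries by tissue label, with exact Poisson 95% intervals; right, Cldn5 over the mean of Pecam1 and Cdh5 (log axis), with intervals from counting error. In the library labelled small intestine alone does Cldn5 lie above both endothelial mRNAs, at a ratio of 4.37.

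Cldn18 is known for a lung and a stomach form that differ in their first coding exon. It had 359 RPKM (344 to 374) from 2195 reads in the library labelled lung, 137-fold (85.2 to 235) above the 2.62 RPKM labelled heart. The libraries labelled colon, kidney and brain had 3, 1 and 1 reads, and that labelled small intestine had none, where 3 reads would be 0.495 RPKM. The row counts the transcript that starts in the downstream first exon, which is 27.8% of the CDS, so reads on the other first exon are missing from it and those on the 4 shared coding exons are included. How much of the density lies on either first exon was not tested, as the tables hold 1 value per gene. The gene is on chromosome 9, from 99571514 to 99599320 on the minus strand.

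Between the libraries labelled lung and heart, whose markers went with their labels, 6 members had at least 10 reads in both and a median ratio of lung to heart of 6.23, against 1.75 over 9112 mRNAs. After Cldn18, the ratio was 9.67 (6.27 to 15.6) for Cldn3, 6.73 (5.25 to 8.73) for Cldn7, 5.72 for Cldn5, 5.49 (4.09 to 7.49) for Cldn15 and 4.15 (2.23 to 8.32) for Cldn4. Cldn8 was 25.7-fold (12.8 to 60.3) higher labelled lung, from 194 and 8 reads. Cldn1 had 43 reads labelled lung and none labelled heart, at least 15.2-fold higher with the floor set at 3 reads in the library labelled heart, while the counting interval of the ratio began at 11.8. The pore-forming Cldn2 and Cldn10 had 7 reads or fewer in each of these libraries. Epithelial markers moved the same way, with a sum of 628 RPKM labelled lung and 113 labelled heart, and their part in these ratios was not tested. The library labelled heart also held lung markers, with 200.1 RPKM of Sftpc and 153 of Scgb1a1, and that labelled lung held 193 of Tnnt2 and 207 of Nppa. Their part was likewise not tested, neither in these ratios nor in the 17 reads of Cldn18 labelled heart.

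The composition of the family followed from these levels. Pore-forming claudins made up 57.8% (55.6 to 59.98) of the summed claudin RPKM in the library labelled colon, where Cldn2 alone was 51.4% and Cldn8 came next with 18.6%. They were 31.7% (27.9 to 35.6) in the library labelled small intestine, 23.6% (23.0 to 24.1) labelled brain, 14.4% (13.8 to 15.1) labelled kidney, 13.3% (10.3 to 16.2) labelled heart and 5.90% (5.24 to 6.57) labelled lung. The libraries labelled kidney and heart overlapped, and no other neighbours in this order did. The intervals carry counting error and nothing of the spread between animals.

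The pore-forming share was built from different members in different libraries. In the library labelled small intestine the pore-forming part was Cldn10 with 22.0% and Cldn15 with 9.53%, and Cldn2 was 0.174%, so the share fell to 12.4% without Cldn10. In that labelled brain it was Cldn15 with 17.8% and Cldn2 with 5.76%. Cldn7 alone was 64.7% of the sum labelled brain and 65.6% labelled kidney. With Cldn7 left out, the pore-forming share passed the sealing share labelled brain, at 66.7%, and stayed below it labelled kidney, at 41.9%. The library labelled brain then came above that labelled colon at 64.6%, but no intervals were computed for these shares and their order was not tested. Cldn5 led the library labelled heart with 58.7% and that labelled small intestine with 38.95%. The library labelled lung was split between Cldn18 with 39.7% and Cldn5 with 33.1%. Without Cldn5 and Cldn18, the pore-forming share was 34.6% labelled heart, 21.7% labelled lung and 52.0% labelled small intestine.

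**Figure D3:**
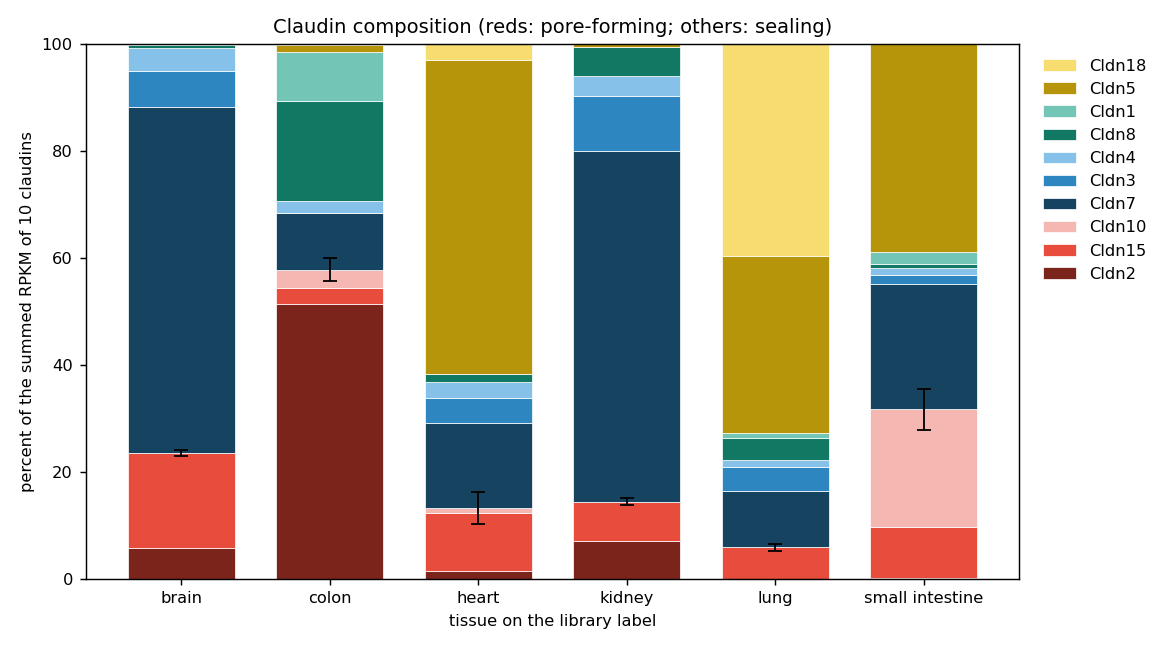
Percent of the summed RPKM of the 10 claudins (vertical axis) taken by each member in the 6 libraries by tissue label; reds are pore-forming and stacked first, and the black bars are 95% intervals of the pore-forming percent from counting error. The reds reach 57.8% in the library labelled colon and 5.90% in that labelled lung.

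Together the 10 claudins had 3665 RPKM (3620 to 3710) in the library labelled brain, 2369 (2326 to 2412) labelled kidney, 904 (879 to 929) labelled lung and 660 (631 to 689) labelled colon. The sums were far lower labelled small intestine, at 109 (99.7 to 118), and labelled heart, at 89.1 (81.1 to 97.1). The sum of 5 epithelial mRNAs was highest in the same 2 libraries, at 6875 RPKM labelled brain and 4039 labelled kidney. Of these mRNAs, Krt8 (3707 against 1585) and Krt19 (1607 against 593) were higher labelled brain. Epcam (1130 against 1175), Cdh1 (373 against 624) and Krt18 (57.7 against 61.6) were higher labelled kidney. The part of the epithelial mRNAs in the claudin sums was not tested.

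**Figure D4:**
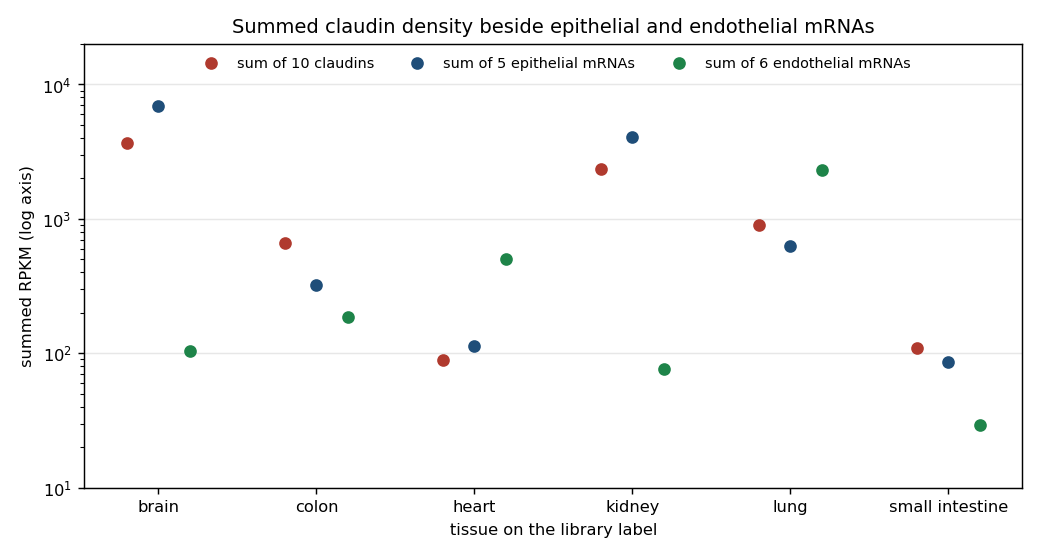
Summed RPKM (log axis) of the 10 claudins, of 5 epithelial mRNAs and of 6 endothelial mRNAs in each library by tissue label, with 1 point per sum. The claudin sum lies below the epithelial sum labelled brain, heart and kidney, and above it labelled colon, lung and small intestine. It includes Cldn5, the claudin of endothelium, at 8.83 RPKM labelled colon, 299 labelled lung and 42.4 labelled small intestine. In the last 2 the epithelial sums were 628 and 85.5, so without Cldn5 the order there would not hold.

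Of the 11 other claudins in the tables, 6 had no reads in any library. Cldn11, the claudin of myelin, had 169 RPKM (157 to 181) from 801 reads in the library labelled small intestine and at most 1 read in every other. Summing every listed claudin in place of the 10 members lowered the pore-forming share of that library to 11.9%. In that sum Cldn16 joined the pore-forming claudins, and the other added claudins, Cldn11 among them, were counted as not pore-forming. Cldn23 resembled Cldn3, with 97.3 RPKM (91.1 to 104) labelled brain, 93.6 (86.4 to 101) labelled kidney, 21.1 labelled lung, 1.92 labelled small intestine, 0.688 labelled heart, and no reads labelled colon. Cldn12 did not pass 10.1 RPKM, its value labelled kidney. Cldn16 and Cldn19, which together form the magnesium and calcium path of the thick ascending limb, had 5.67 RPKM from 18 reads and 5.29 from 16 reads in the library labelled colon, the one with Umod, and at most 1 read in any other.

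Claudin strands are joined by other membrane proteins and tied to actin by scaffolds, and 24 such mRNAs were followed. Of these, 8 were highest in the library labelled lung, 6 labelled brain, 3 each labelled colon and kidney, and 2 each labelled heart and small intestine. By the fold of 4, 3 stood above the next library in a single one, which is less than the background of 25.0%, and none met the 2-library rule, against 7.71%. Their median fold was 1.498.

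Among the membrane partners, occludin (Ocln) had 237 RPKM (230 to 244) labelled brain, 167 (160 to 175) labelled kidney, 75.9 labelled lung, 28.8 labelled colon, 12.1 labelled small intestine and 2.58 labelled heart. The 6 libraries stood in the same order for Ocln as for Cldn7. The angulins, which recruit tricellulin (Marveld2) to the corners where 3 cells meet, parted by library. Lsr was highest labelled brain with 138 RPKM, Ildr1 labelled kidney with 106.6 (5.60-fold above the next), and Ildr2 labelled small intestine with 51.4 (12.8-fold). Igsf5, an adhesion molecule of the junction, had 3.18 RPKM from 16 reads labelled colon and at most 1 read elsewhere. Of the scaffolds, Tjp1, the gene of ZO-1, had 109 RPKM labelled lung, from 17.1 to 48.4 elsewhere, and Tjp3 had 32.9 labelled brain. Cgn, the gene of cingulin, was highest labelled brain with 43.9 RPKM, and its relative Cgnl1 labelled colon with 70.3. Of the other adhesion molecules, Cxadr was highest labelled kidney with 201 RPKM, F11r and Esam labelled lung with 167 and 137, Jam3 labelled small intestine with 36.7 and Jam2 labelled heart with 36.4. Marveld3 was highest labelled brain with 48.9 and Marveld2 labelled kidney with 6.97. The remaining scaffolds described here stayed between 8.82 RPKM (Pals1) and 31.0 (Patj, labelled brain) in their highest libraries. These were lung for Pals1, Pard3, Magi1 and Magi3, colon for Pard6b and heart for Mpdz.

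**Figure D5:**
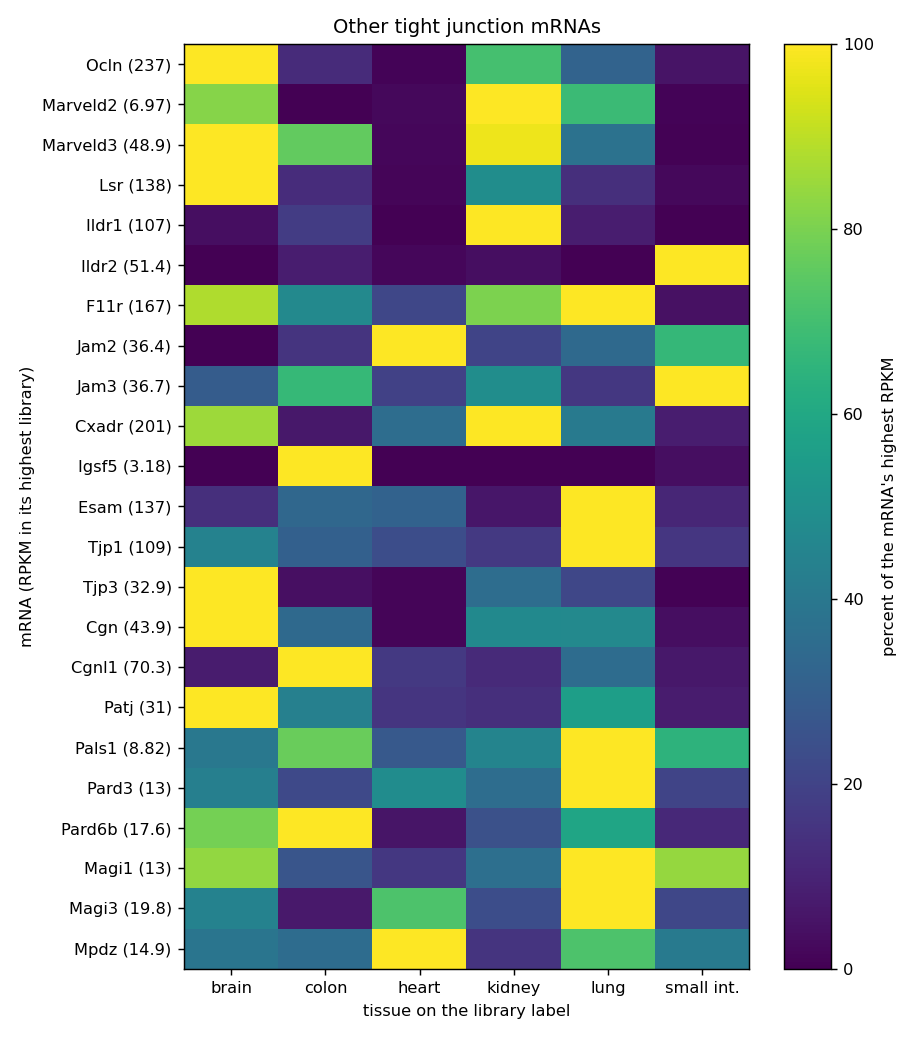
Ribosome density of 23 other tight junction mRNAs (rows, with the RPKM of the highest library in brackets) in the 6 libraries by tissue label (columns), as percent of the highest RPKM of each mRNA. Ocln, Lsr, Tjp3 and Cgn are brightest in the column labelled brain, and Ildr1 in that labelled kidney.

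The mRNAs most like each member were found by Pearson's r of log2(RPKM + 1) over the 6 libraries among 9787 mRNAs. The 6 points share total depth, the Kri1 reads and the labels, so r is a description. Trpm4 was nearest to Cldn7 (r = 0.998) and Gpx2 to Cldn3 (0.997). Spint2 was nearest to Cldn4 (0.996), Trim15 to Cldn15 (0.997) and Nr1h4, the bile acid receptor, to Cldn2 (0.996). Chil3 was nearest to Cldn18 (0.998) and Ptprm, a receptor phosphatase of endothelium, to Cldn5 (0.996). Csad was nearest to Cldn1 (0.992), Gdf11 to Cldn10 (0.992) and Lsm5 to Cldn8 (0.986). Between 0 and 17 mRNAs per member reached an r of 0.99, with 17 for Cldn18 and none for Cldn8.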

How the data were processed

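Ribo-seq was performed on 6 mouse tissues with 1 library each. The authors deposited a table of RPKM values for each library, in which a row names the transcript, its gene and the position of its CDS. Per the labels, Cutadapt, STAR and GRCm39 were used, with no versions given. The Methods, which describe macrophage libraries and were assumed to apply to the tissues, state that reads under 15 nt were dropped, that 1 transcript per gene (longest CDS) was the target of alignment, and that reads with several positions or more than 2 mismatches were removed before counting. Because the denominator of RPKM is every read on a CDS, Kri1 lowers the other values of a library.

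Reads were recovered from RPKM and CDS length and came out whole (within 0.01 of a read) for 100% of values. Depth was 4504853 to 10635031 reads. Intervals (95%) were exact Poisson for RPKM, exact binomial for ratios of reads, and from Poisson variances for sums, shares and the Cldn5 ratio. They cover counting error only. With 1 library per label no test was run. A member was called at 4-fold over the next library among mRNAs with at least 10 reads in the highest, a next value of 0 being set to 3 reads. CDSs and gene coordinates came from GENCODE M39 (GRCm39), and symbols were found for 18424 of 18437 mRNAs. Named were the 10 members, other claudins of at least 10 RPKM, 23 of the 24 other tight junction mRNAs (each is highest in some library, and 1 is not reported here), and the mRNAs most like each member among those with at least 10 RPKM and 100 reads. Cldn16 and Cldn19 were added after their values were seen. The members and lists were chosen with earlier results of these data known. Alternatives changed scaling, depth, filters, folds, weights and the claudins summed. Recovery and intervals were tested on simulated data. Python 3.11.15, numpy 2.4.6, scipy 1.17.1, pandas 2.3.3, Biopython 1.88 and matplotlib 3.10.9 were used.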

Additional observations from a re-analysis of the deposited data

How the results depend on the processing

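No paired analysis was possible because each label had 1 library, and for the same reason no replicate could be left out. Size factors multiplied the RPKM of a library by between 0.731 (labelled lung) and 1.20 (labelled kidney), and leaving Kri1 out of the totals by between 1.004 and 1.28. Of the 120 member values under these scalings, 89 stayed within their counting interval and 31 moved beyond it. Few reads give a wide interval and a value with no reads could not move, so this split depends on read number too. No called fold changed direction, but a fold of at least 4 could not reverse under scalings of this size, so nothing follows from this. The highest library changed for Cldn3 under both scalings and for Cldn3 and Cldn10 when reads were thinned to the lowest total.

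The summed RPKM became 3438 labelled brain, 595 labelled colon, 101 labelled heart, 2837 labelled kidney, 661 labelled lung and 129 labelled small intestine with size factors. Without Kri1 it was 3740 labelled brain, 708 labelled colon, 3042 labelled kidney and 127 labelled small intestine. A fold of 8 in place of 4 left 1 member above the next library (Cldn18) and 2 by the 2-library rule (Cldn7 and Cldn10), against 15.5% and 4.24% of all mRNAs. Size factors left 2 members by the first rule and 6 by the second, against 24.3% and 7.30% of all mRNAs.

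The pore-forming percent without Cldn4 and Cldn7 was 76.0 labelled brain, 66.3 labelled colon, 16.3 labelled heart, 47.2 labelled kidney, 6.68 labelled lung and 42.1 labelled small intestine. Without Cldn7 it was 66.7 labelled brain, 64.6 labelled colon, 41.9 labelled kidney, 6.60 labelled lung and 41.4 labelled small intestine. Without Cldn5 and Cldn18 it was 34.6 labelled heart, 21.7 labelled lung and 52.0 labelled small intestine. Weighting by reads gave 24.9 labelled brain and 15.3 labelled kidney, and summing every listed claudin gave 22.9 labelled brain and 11.9 labelled small intestine. That library also had 12.4 without Cldn10 and 26.2 when thinned. The library labelled colon was highest in these settings except those without Cldn7, where that labelled brain was, and that labelled lung was lowest except without Cldn5 and Cldn18. No intervals were computed for these alternatives, and the values without Cldn7 alone, 66.7 labelled brain and 64.6 labelled colon, lie close together.

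Against the whole endothelial list the Cldn5 ratio was 0.285 labelled colon, 0.627 labelled heart, 0.869 labelled kidney, 0.771 labelled lung and 8.67 labelled small intestine. Against Pecam1 alone it was 0.482 labelled heart, 0.530 labelled lung and 10.03 labelled small intestine, and against Cdh5 alone 0.208, 0.263 and 2.79. The single-gene ratios, the setting without Cldn7 and the 2-library counts were added after the data had been seen. Values under 10 reads have no usable order at this depth.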
